A study of Mus musculus with 2 samples.

Results

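The interleukin-1 (IL-1) family and its receptors were followed in mouse keratinocytes, the main cell of the epidermis, as 10 genes of the 21337 named on the array. They were the ligand genes Il1a, Il1b, Il18, Il33, Il1f6 and Il1f9, the antagonist genes Il1rn and Il1f5, and the receptor genes Il1r1 and Il1r2. The members were chosen by name: every gene probe on both arrays whose gene name equalled one of the 10 was taken, which gave 14 probes on 32 spots of each array. Expression was measured on 2 two-colour Agilent arrays. Each set total RNA of keratinocytes labelled as deleted for Chuk through loxP sites, in Cy5, against total RNA of wild-type keratinocytes, in Cy3. Chuk encodes IKKα, which is 1 of the catalytic chains of the IκB kinase. The labels give no strain, age, treatment or Cre driver, and leave unsaid whether each array had its own culture or animal. The p-values therefore measure the spread between 2 arrays, which may be purely technical. No dye swap is labelled, and dye and genotype cannot be told apart.

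IL-1 cytokines are alarm signals of epithelia. IL-1α, IL-33 and the IL-36 cytokines are made by keratinocytes, while IL-1β and IL-18 are made as inactive precursors that caspase-1 cuts in inflammasomes. The agonists other than IL-18 bind a specific receptor chain and recruit the shared accessory chain encoded by Il1rap. IL-18 uses receptor chains of its own, encoded by Il18r1 and Il18rap. In each case the adaptor MyD88 and IRAK kinases then carry the signal to NF-κB. The IL-1 receptor antagonist (Il1rn) and the IL-36 receptor antagonist (Il1f5, also Il36rn) occupy receptors without signalling, and the decoy receptor encoded by Il1r2 binds IL-1 without a signalling tail. Il1f6 and Il1f9 are older names of the IL-36α and IL-36γ genes.

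Of the 10 members, 7 were well above background in both channels on both arrays, and 5 of these fell and 1 rose in the channel labelled Chuk-deleted. Those that fell were the agonist genes Il18, Il1a and Il33 and both antagonist genes. The IL-36 receptor antagonist gene Il1f5 fell by 3.66 ± 0.94 on the log2 scale (SD, n = 2 arrays), the most of the 7. The signalling receptor gene Il1r1 rose by 0.36 ± 0.11, and the brighter probe of the decoy receptor gene Il1r2 lay at -0.03 ± 0.02 and did not pass the threshold. Il1f6 and Il1f9 passed the filter on brightness through the wild-type channel on at least 1 array, so that the filter itself favoured a lower ratio, and they are described below but not counted. Il1b was not bright enough to be tested. Fell and rose stand for an adjusted p under 0.05 in a limma fit across 23519 probes with Benjamini-Hochberg adjustment. In that fit 28.3% of the 13739 tested genes were lower and 33% were higher. Of the 12688 genes that were well above background in both channels on both arrays, 29.2% were lower and 33.2% higher when fitted alone. The calls of the 7 members were the same in both fits and are set beside these shares. Since the members were chosen with earlier results of these data known, their counts are descriptions and not a test. At least 2-fold lower on both arrays were 5 members (Il1f5, Il18, Il1a, Il33 and Il1rn), against 2.95% of the 12688 genes and 3.21% of the 13739. At least 2-fold higher on both arrays was 0 of the 7 members, against 1.56% of the 12688 genes and 1.5% of the 13739. The median over the 7 members was -1.35 on the log2 scale, with -1.21 for array 1 and -1.58 for array 2, while that of the 12688 genes was 0.02.

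**Figure D1:**
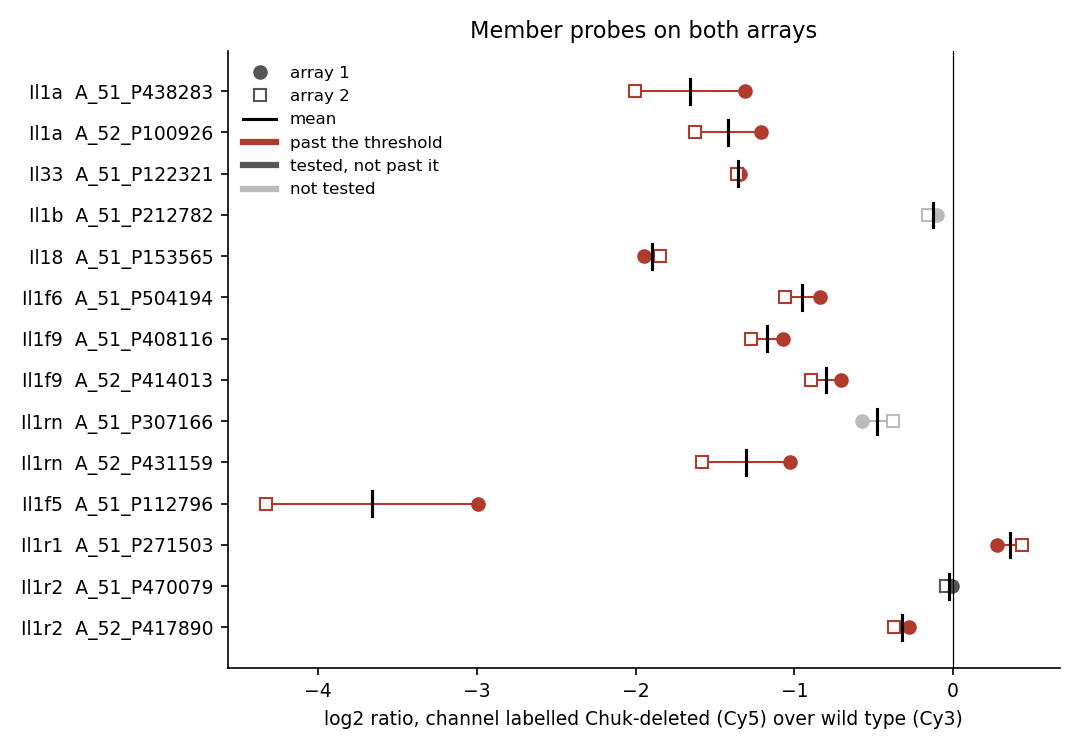
Log2 ratio (x axis) of the channel labelled Chuk-deleted over the wild-type channel for the 14 member probes, with array 1 as filled circles, array 2 as open squares and the mean as a bar. The Il1f5 probe lies furthest left at -2.99 and -4.33, the Il1r1 probe alone lies right of 0 on both arrays, and grey probes were too dim to be tested.

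Chuk itself, measured by 2 probes, was higher in the channel labelled Chuk-deleted (mean log2 ratios of 0.74 ± 0.02 and 0.85 ± 0.11), which goes against the label unless these probes lie outside the deleted part, a place the files do not give. Every direction given here rests on the labels of the channels. The share of gene spots well above background ran from 53.2% to 64.5% over the channels and arrays. Median spot signals were 218 and 171.5 in Cy5 and 109.9 and 95.2 in Cy3. Raw signals of the dyes are therefore not on 1 scale, and channels were compared only as ratios normalised by loess within each array. Keratinocyte markers were well above background in the wild-type channel for 8 of 8 genes and in the channel labelled Chuk-deleted for 7 of 8, where Krt1 was not. Of those 7, Krt5, Krt14, Trp63 (0.90 ± 0.13) and Col17a1 (1.36 ± 0.22) rose and Krt10, Dsg3 (-0.69 ± 0.16) and Perp (-0.63 ± 0.20) fell, and the part of this in the members' ratios was not tested. No member spot was saturated or flagged as an outlier.

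The sequences just before the start sites of 4 members that fell are shown. These genes all changed by more than 2-fold, and their windows differ in matches to an AP-1 motif and to the letters TATAAA. Il33 also fell by more than 2-fold, but its windows, described below, are not printed. The printed sequences are from RefSeq (GRCm38.p6), hold the 250 bases before the start, run 5′ to 3′, and have the matches in capitals. The table held such windows for 9 of the 10 members, in 14 windows.
Il1f5 promoter (chr2:24276704-24276953, plus strand): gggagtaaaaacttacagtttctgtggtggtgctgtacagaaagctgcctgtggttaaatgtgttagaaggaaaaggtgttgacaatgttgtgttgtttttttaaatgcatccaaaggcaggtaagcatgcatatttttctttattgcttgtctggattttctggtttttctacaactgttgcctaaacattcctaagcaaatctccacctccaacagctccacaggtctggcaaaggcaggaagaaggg
Il18 promoter (chr9:50554450-50554699, plus strand): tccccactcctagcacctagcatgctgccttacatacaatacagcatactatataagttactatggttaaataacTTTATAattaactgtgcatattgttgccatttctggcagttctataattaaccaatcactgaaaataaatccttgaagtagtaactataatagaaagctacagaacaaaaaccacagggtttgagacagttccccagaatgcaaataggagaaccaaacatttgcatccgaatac
Il1a promoter (chr2:129309973-129310222, minus strand): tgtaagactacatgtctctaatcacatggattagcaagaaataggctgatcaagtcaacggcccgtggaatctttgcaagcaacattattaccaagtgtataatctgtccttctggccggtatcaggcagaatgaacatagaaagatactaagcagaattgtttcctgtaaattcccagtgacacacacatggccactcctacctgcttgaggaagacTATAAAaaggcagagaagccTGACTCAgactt
Il1rn promoter (chr2:24336610-24336859, plus strand): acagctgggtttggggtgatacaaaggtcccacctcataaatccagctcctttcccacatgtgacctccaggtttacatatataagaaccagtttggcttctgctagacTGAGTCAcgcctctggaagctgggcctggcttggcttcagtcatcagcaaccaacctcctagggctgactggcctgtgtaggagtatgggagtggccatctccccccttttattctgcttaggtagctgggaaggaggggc
The AP-1 motif TGANTCA, searched on both strands, was present in 2 of the 14 windows, those printed for Il1a and Il1rn, and in 6.75% of 32851 mouse windows of the same length. In Il1a it reads TGACTCA and ends 6 bases before the start, and in Il1rn it reads TGAGTCA and ends 135 bases before the start. The other two Il1rn windows in the table hold none. The letters TATAAA of the TATA box, also searched on both strands, were present in 5 of the 14 windows (Il1a, Il1b, Il18 and both of Il33) and in 12.4% of all windows. They end 27 bases before the start in Il1a, 26 in Il1b, and 198 and 24 in the windows of Il33. In Il18 the match lies on the opposite strand, as TTTATA, and ends 170 bases before the start. Whether any match works as a TATA box was not tested. The κB motif, searched by its usual consensus on both strands, was found in 1 of the 14 windows, a window of Il1r1, and in 7.25% of all windows. The Il1f5 window printed holds none of these motifs. These matches are descriptions of letters, and no motif overlapped another in the 4 windows printed.

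Il1a encodes IL-1α, which keratinocytes keep in store and release when they are damaged. Its brighter probe, A_52_P100926, had raw signals of 2236 and 919 in the channel labelled Chuk-deleted and of 1940 and 1103 in the wild-type channel on arrays 1 and 2. The normalised log2 ratios were -1.21 and -1.63. Il1a was lower on both arrays and fell by 1.42 ± 0.29 on the log2 scale, or 2.68-fold (adjusted p = 9.90e-05, limma). The second probe, A_51_P438283, gave -1.31 and -2.00 (mean -1.66 ± 0.49) and fell as well. On both probes array 2 lay further below 0 than array 1. The Il1a window above holds both motifs within the 32 bases before the start.

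Il33 encodes IL-33, a nuclear cytokine of epithelial cells that signals through the receptor chain ST2. Its single probe gave raw signals of 594 and 501 in the channel labelled Chuk-deleted and of 603 and 527 in the wild-type channel. The log2 ratios were -1.34 and -1.36, so that the arrays lay closer together for Il33 than for any other member that passed the threshold. It fell by 1.35 ± 0.01, or 2.56-fold (adjusted p = 2.46e-05, limma).

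Il18 encodes the precursor of IL-18, which keratinocytes make without a stimulus. Its probe was spotted 10 times on each array, and all 10 spots were well above background in both channels on both arrays. Raw signals averaged 267 and 175 in the channel labelled Chuk-deleted and 441 and 282 in the wild-type channel. The spots' log2 ratios had a lowest value of -2.03, a median of -1.96 and a highest value of -1.84 on array 1. On array 2 these values were -2.00, -1.85 and -1.71. Every Il18 spot was thus far below 0, and the ranges of the arrays overlapped. Il18 fell by 1.90 ± 0.07, or 3.73-fold (adjusted p = 1.61e-05, limma). The SD among spots was 0.07 on array 1 and 0.10 on array 2, and the difference between the arrays lay within the range of the spots.

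Il1b encodes the IL-1β precursor and was also spotted 10 times on each array. Of these spots, 2 in the channel labelled Chuk-deleted and 0 in the wild-type channel were well above background on array 1. On array 2 it was 1 spot in each channel. Raw signals averaged 102 and 104 in the channel labelled Chuk-deleted over backgrounds of 72 and 72.1, and 74.2 and 76.8 in the wild-type channel over backgrounds of 41.7 and 40.8. Il1b was therefore not tested, and its level had only a bound in both channels. Its log2 ratios of -0.10 and -0.16 are ratios of signals close to background, and a change of this gene was not detectable at this brightness.

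**Figure D2:**
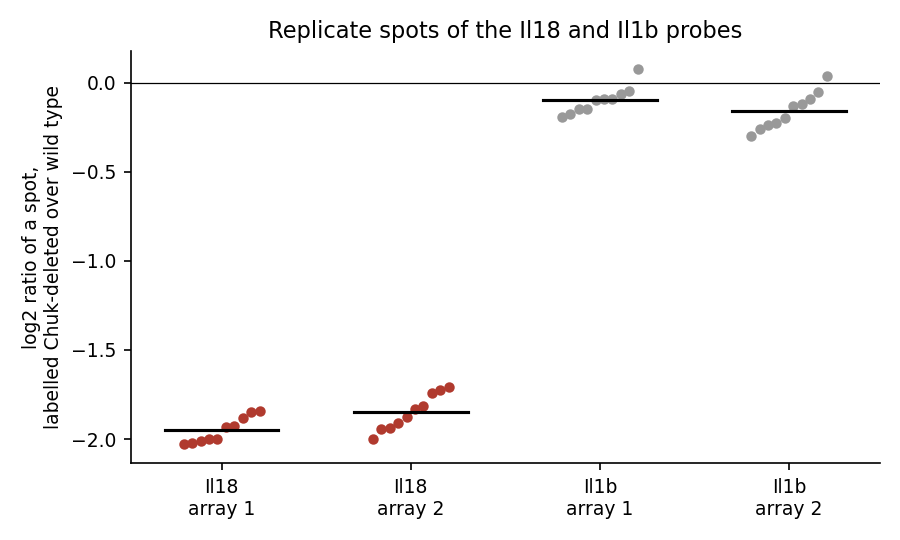
Log2 ratio (y axis) of each of the 10 spots of the Il18 and Il1b probes on each array, sorted by value within an array, with the mean as a bar. The Il18 spots lie between -2.03 and -1.71, and the Il1b spots between -0.30 and 0.07, at signals close to background.

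Macrophages and Langerhans cells are a source of IL-1β in skin. Of 13 of their markers 4 were well above background in both channels on both arrays. Tyrobp and Lyz2 fell, at -0.54 ± 0.17 and -1.02 ± 0.08, and Cd68 (0.13 ± 0.06) and Fcer1g (-0.12 ± 0.09) did not pass the threshold. Adgre1 (-1.15 ± 0.17) and Csf1r (-0.81 ± 0.02) were tested through the wild-type channel on 1 of the 2 arrays. Ptprc, Cd207, Itgam, Itgax and Cx3cr1 were not well above background in either channel on either array. The summed normalised signal of the 6 tested markers, dim channels included, was 2976 to 3114 in the channel labelled Chuk-deleted and 4329 to 4391 in the wild-type channel. Fibroblast markers rose in 6 of 8 tested genes (median 0.73), with summed signals of 200162 to 203149 against 70819 to 89525. The 1 that fell was Dcn, at -0.60 ± 0.03. Melanocyte markers fell in 4 of 4 tested genes (median -1.46), with summed signals of 16806 to 19144 against 46969 to 48232. Among all tested genes 33% rose and 28.3% fell. T cell, mast cell and endothelial markers were mostly too dim, with 2 of 6, 2 of 5 and 1 of 5 tested. The part of any of these cells in the members' ratios was not tested. In bulk RNA, fewer cells of a type and less RNA per cell cannot be told apart.

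The IL-36 agonist genes were dim, and both had lower ratios on both arrays. Il1f6, which encodes IL-36α, had raw signals of 101 and 95.6 in the channel labelled Chuk-deleted and of 112 and 121 in the wild-type channel. Its signal was well above background on 0 of 2 arrays in the channel labelled Chuk-deleted, so its ratio has only a bound. On the mean of the 2 arrays Il1f6 was at least 1.84-fold lower. Since it entered the fit through the wild-type channel alone, its adjusted p of 0.000111 (limma) does not bear on the direction. Such bounds were taken per channel, as a mean over the arrays, after loess and scaling between arrays. They need not hold on each array alone, and without a dye swap they are open to dye bias. The log2 ratios with both signals as measured were -0.84 and -1.06. An offset of 50 added to each signal before the logarithm draws ratios of dim spots towards 0, and with an offset of 16 the mean for Il1f6 was -1.43. The scanner software's own ratio was -3.49 and -4.24. On array 2 the software had put a substitute in place of the signal of the channel labelled Chuk-deleted, so -4.24 is not a measured ratio.

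Il1f9, which encodes IL-36γ, was measured by 2 probes whose ratios were below 0 on both arrays. Probe A_52_P414013 gave raw signals of 146 and 92.3 in the channel labelled Chuk-deleted and of 127 and 109 in the wild-type channel. It was well above background in the channel labelled Chuk-deleted on 1 of the 2 arrays, and its log2 ratios were -0.71 and -0.89 (mean -0.80 ± 0.13, adjusted p = 0.000155, limma), with array 2 admitted through the wild-type channel. The scanner software's ratio for this probe was -1.59 and -3.84, the latter with a substituted signal in the channel labelled Chuk-deleted. The mean with an offset of 16 was -1.20. Probe A_51_P408116 was well above background on 0 of 2 arrays in the channel labelled Chuk-deleted. On the mean of the arrays it was at least 2.09-fold lower. It too entered the fit through the wild-type channel alone (adjusted p = 5.35e-05, limma).

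**Figure D3:**
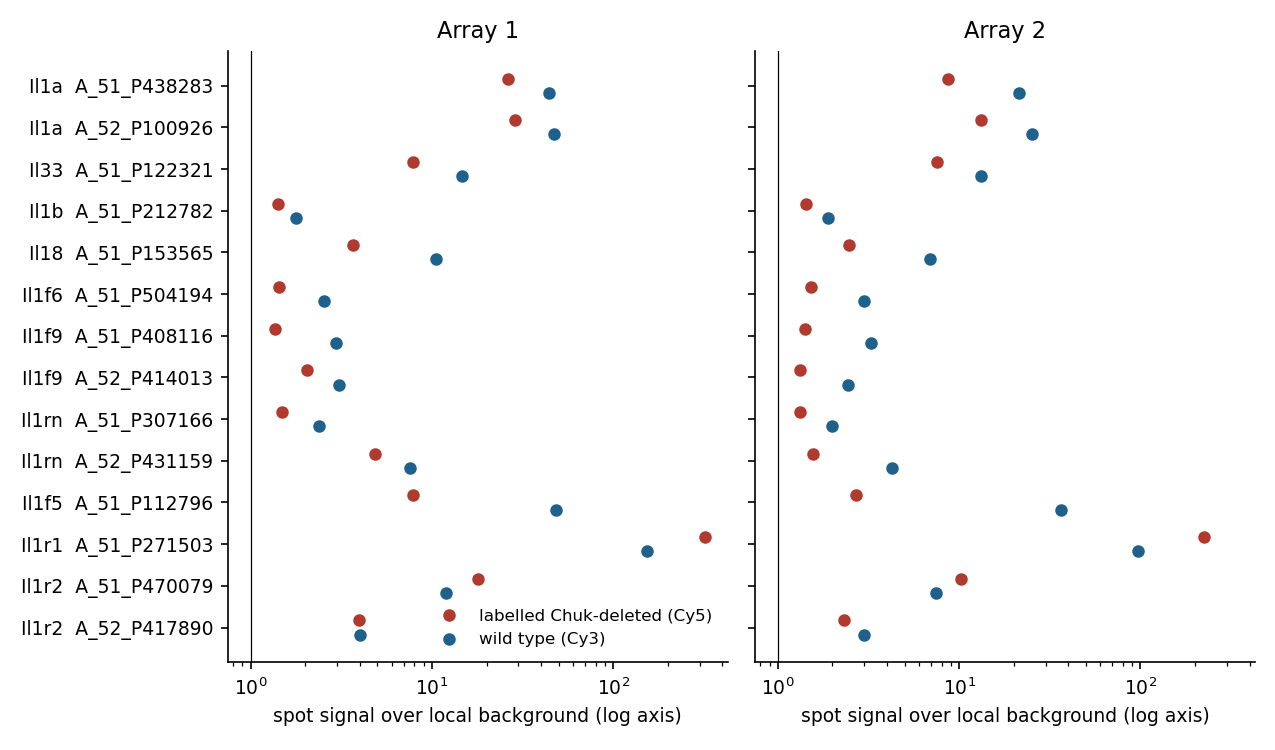
Raw spot signal over its local background (x axis, log scale) for each member probe on array 1 and array 2, with the channel labelled Chuk-deleted above the wild-type channel in each row. Il1b, Il1f6, Il1f9 and the dimmer Il1rn probe lie closest to 1, Il1r1 lies furthest right, and the colours are not on a common scale because the dyes differ in brightness.

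Both antagonist genes fell. Il1f5 encodes the IL-36 receptor antagonist, which blocks the receptor that IL-36α and IL-36γ use. Its probe had raw signals of 658 and 188 in the channel labelled Chuk-deleted and of 1978 and 1471 in the wild-type channel, all well above background. The log2 ratios were -2.99 and -4.33, and Il1f5 fell by 3.66 ± 0.94, or 12.7-fold (adjusted p = 0.000127, limma). Array 1 gave the smaller fall, and the 95% interval of the mean in the fit was -4.33 to -3.00. Among the 13739 tested genes it ranked 14 from the lowest. The intervals of the agonist genes Il1f6 (-1.11 to -0.78) and Il1f9 (-0.96 to -0.65) lay closer to 0. Both genes were dim in the channel labelled Chuk-deleted, where the offset draws ratios towards 0. Their sizes therefore cannot be set against that of Il1f5. With the scanner software's ratio, which rests partly on substituted signals for the dim genes, the means were -3.86, -2.72 and -4.28 for Il1f6, Il1f9 and Il1f5. The differences between genes were not tested.

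Il1rn encodes the IL-1 receptor antagonist, of which keratinocytes hold an intracellular form. Its brighter probe, A_52_P431159, had raw signals of 330 and 126 in the channel labelled Chuk-deleted and of 294 and 173 in the wild-type channel. The signal of 126, on array 2, was flagged as well above background but stood over a background of 80, and was thus dim. The log2 ratios were -1.03 and -1.58. Il1rn thus fell by 1.30 ± 0.39, or 2.47-fold (adjusted p = 0.000271, limma), and array 2 again lay lower. The scanner software's ratios were -1.40 and -2.97, with a mean of -2.18, so the size on array 2 depends on the processing. The second probe, A_51_P307166, was too dim on array 2 to be tested and gave -0.57 and -0.38.

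Among the receptor genes of the part, Il1r1 rose and the brighter probe of Il1r2 did not pass the threshold. Differences between receptor genes and ligand genes were not tested. Il1r1 encodes the receptor through which IL-1α and IL-1β signal. Its probe was bright, with raw signals of 25274 and 15536 in the channel labelled Chuk-deleted and of 7188 and 4091 in the wild-type channel. After loess the log2 ratios were 0.28 and 0.43, and Il1r1 rose by 0.36 ± 0.11, or 1.28-fold (adjusted p = 0.00279, limma). It is the 1 member that rose, and 83.5% of all tested genes had a lower ratio than it. When the mean of the spike-in control spots was taken off each array after loess, its sign turned, to -0.41.

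Il1r2 encodes the decoy receptor, and its 2 probes differed. The brighter probe, A_51_P470079, had raw signals of 1208 and 765 in the channel labelled Chuk-deleted and of 482 and 326 in the wild-type channel. Its log2 ratios of -0.01 and -0.04 did not pass the threshold (adjusted p = 0.684, limma), and the 95% interval of the mean was -0.15 to 0.10. The dimmer probe, A_52_P417890, gave -0.28 and -0.37 and fell by 0.32 ± 0.07 (adjusted p = 0.00282, limma). Whether the probes measure different transcripts is not given by the files. The sign of the brighter probe depends on the centring, since centring each array on its median alone gave 0.49.

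**Figure D4:**
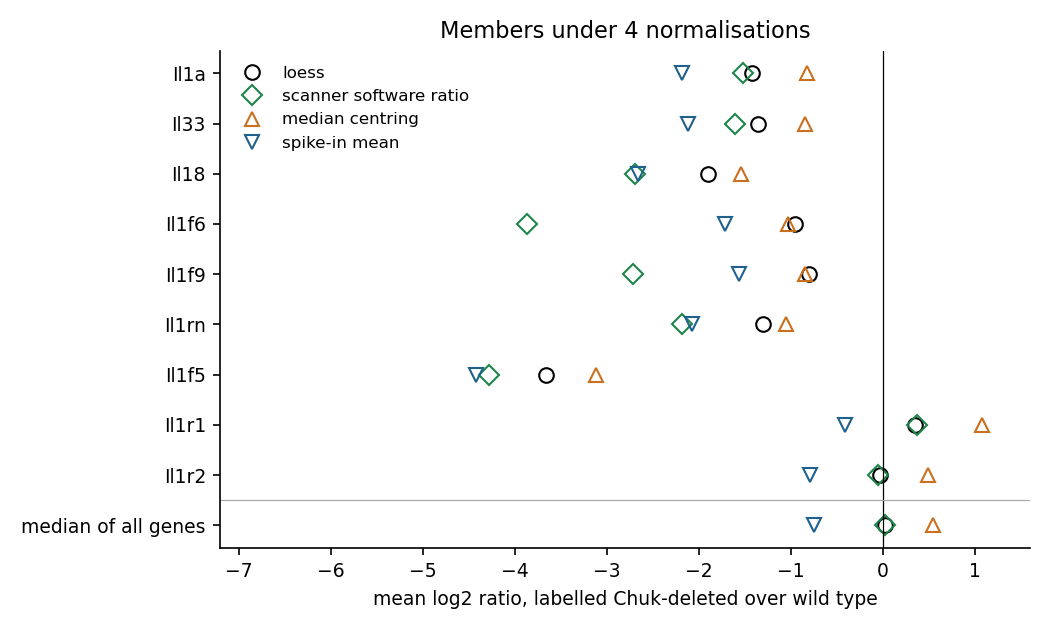
Mean log2 ratio (x axis) of the 9 tested members and the median of all tested genes under loess, the scanner software's ratio, median centring and lowering by the spike-in mean. Il1f5, Il18, Il1a, Il33, Il1rn, Il1f6 and Il1f9 lie left of 0 under each, while Il1r1 and Il1r2 change sides between them.

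The spike-in mean, taken off after loess, lowered every ratio by 0.68 on array 1 and 0.84 on array 2. Median centring leaves out the loess curve and moved genes by different amounts. It took Il1r1 from 0.36 to 1.09 and Il1f6 from -0.95 to -1.03. With median centring alone the median of all tested genes was 0.55, and with the spike-in mean it was -0.74, while under loess it was 0.02. Relative to that median, Il1r1 lay at 0.34 under loess and 0.54 under median centring, and Il1r2 lay at -0.05 under both. The spike-in mean leaves these places as under loess by construction. The 5 genes that fell stayed below 0 and past the threshold under each of the 3, with Il18 at -1.90, -1.54 and -2.66. For the spike-in mean, which lowers every ratio, their direction was fixed in advance. Il1a lay at -1.42, -0.82 and -2.18 and Il33 at -1.35, -0.85 and -2.12, so that their size, unlike their direction, moved by over 1.5 times. With the spike-in mean Il1rn, Il1f6 and Il1f9 also moved by over 1.5 times, to -2.07, -1.71 and -1.56.

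Several members are neighbours in the genome, which the choice of members by name did not use. In the RefSeq annotation of GRCm38.p6, Il1f8, Il1f9, Il1f6, Il1f5, Il1f10 and Il1rn stand next to each other on chromosome 2 with 0 coding genes between neighbours. Il1f8 encodes IL-36β and Il1f10 the related IL-38. Neither is a member. Il1f8 fell by 0.38 ± 0.06 (adjusted p = 0.0015, limma). On the mean of the arrays Il1f10 was at least 1.26-fold lower, but it was well above background in the wild-type channel alone. Of this cluster Il1f8, Il1f5 and Il1rn, well above background in both channels on both arrays, fell, over a range of log2 ratios from -0.38 for Il1f8 to -3.66 for Il1f5. The other three genes, Il1f9, Il1f6 and Il1f10, were below 0 on both arrays at dim signals in the channel labelled Chuk-deleted. Il1a and Il1b stand together further along chromosome 2, with 1093 coding genes between Il1rn and Il1a.

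On chromosome 1 the receptor genes Il1r2, Il1r1, Il1rl2, Il1rl1, Il18r1 and Il18rap follow each other, also with 0 coding genes between neighbours. Il1r1 was the 1 gene of this row that rose. The IL-36 receptor gene Il1rl2 fell by 0.27 ± 0.10, and the IL-18 receptor chain genes Il18r1 and Il18rap fell by 0.26 ± 0.02 and 0.38 ± 0.08. Il1rl1, which encodes the IL-33 receptor ST2, fell on its brightest probe, with log2 ratios of -0.09 and -0.44 (adjusted p = 0.0375, limma), and 1 of its 3 tested probes did not pass the threshold. Ratios in the receptor row spanned -0.38 to 0.36, all smaller than 2-fold.

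**Figure D5:**
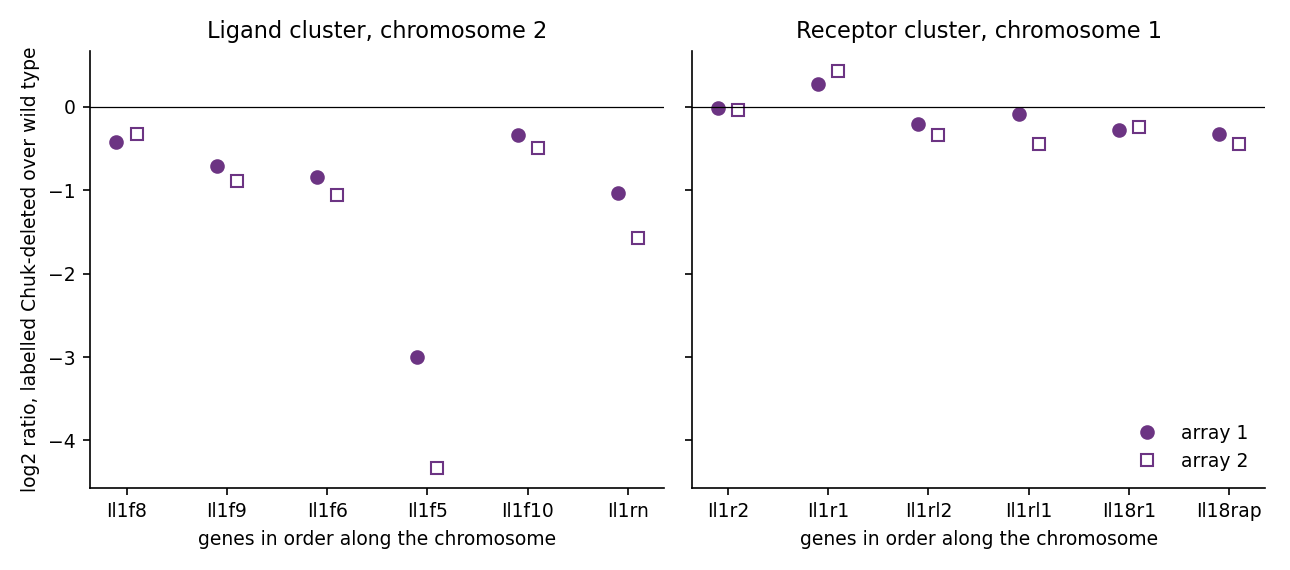
Log2 ratio (y axis) of each gene on array 1 (filled circles) and array 2 (open squares), with genes in order along the chromosome (x axis) for the ligand cluster and the receptor cluster. The 6 ligand and antagonist genes lie below 0 on both arrays with Il1f5 lowest, and the receptor genes lie between -0.44 and 0.43.

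Among 8 receptor chains, decoys and binding proteins that are not members, 7 were tested, of which 5 fell and 1 rose (median -0.27). Besides the 4 receptor genes above, Sigirr, which encodes an inhibitory receptor of the family, fell by 0.79 ± 0.07 (adjusted p = 0.000103, limma). The gene that rose was Il18bp, whose protein binds and blocks IL-18, at 0.40 ± 0.04 (adjusted p = 0.00102, limma). The shared accessory chain gene Il1rap, named after its values were seen, lay at -0.04 ± 0.04, and all 3 of its tested probes missed the threshold.

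Of 17 genes for the maturation and release of the cytokines, 16 were on the array and 9 were tested, 5 fell and 3 rose (median -0.19). Nlrp10, which encodes a NOD-like receptor protein of the epidermis, fell by 0.90 ± 0.09 on its brighter probe. Pycard, the gene of the inflammasome adaptor ASC, fell by 0.61 ± 0.04. Capn2, a calpain subunit gene, and the caspase gene Casp8 fell by 0.29 ± 0.07 and 0.22 ± 0.07. The mast cell chymase gene Cma1 rose, with 0.66 on each array, where the wild-type channel was well above background on 1 of the 2 and the other array was admitted through the channel labelled Chuk-deleted, and Gsdmd, the gene of the pore-forming gasdermin D, rose by 0.28 ± 0.05. Casp1, the gene of the caspase that cuts IL-1β and IL-18, was named after its values were seen and rose by 0.21 ± 0.09 (adjusted p = 0.0214, limma). Nlrp3, Aim2 and Nlrc4, whose proteins start inflammasomes, were too dim to be tested.

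All 14 genes of receptor signalling were tested, and 6 fell and 3 rose (median -0.17). Peli2, which encodes an E3 ligase that acts with IRAK kinases, rose by 1.24 ± 0.08, or 2.35-fold (adjusted p = 3.33e-05, limma), and its 2 probes rose alike. Its paralog Peli1 fell by 0.82 ± 0.04 on the brightest of 3 probes, and 1 of the others rose by 0.31. Tollip, the gene of an inhibitor of IRAK1, fell by 0.71 ± 0.03 and Tab3, of a TAK1-binding protein, by 0.71 ± 0.01. Ube2n, the gene of a ubiquitin-conjugating enzyme used by TRAF6, fell by 0.48 ± 0.01, and Tab1 rose by 0.39 ± 0.10.

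Of 20 genes that IL-1 induces in epithelia, 19 were on the array and 18 were tested, 8 fell and 5 rose (median -0.08), so the list held large changes in both directions. The defensin gene Defb14 gave -3.11 and -4.73 and the cytokine gene Csf2 gave -2.67 and -3.87 on the arrays. Ptgs2, which encodes the prostaglandin synthase COX-2, fell by 1.58 ± 0.09 on its brighter probe, and the other probe lay at -1.43 ± 0.08. The calprotectin genes moved apart, with S100a9 at -2.29 ± 0.27 and S100a8 at 1.06 ± 0.21. Csf3, which encodes the granulocyte growth factor G-CSF, rose by 1.64 ± 0.20. These lists were assembled with earlier results of the same arrays known, and their counts are descriptions beside the 28.3% of all genes that fell and the 33% that rose.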

How the data were processed

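Total RNA of keratinocytes labelled Chuk-deleted (Cy5) and wild type (Cy3) was compared on 2 two-colour arrays, numbered replicates 1 and 2 in the labels. The deposited scanner files hold spot intensity and local background per channel, per the file headers neither corrected nor dye normalised, written by Agilent Feature Extraction 9.1.3.1. They also hold a log10 ratio of Cy5 over Cy3 whose signals had been background subtracted and dye normalised, per the file headers. Their other deposited columns are flags per spot. The deposited value table equalled that log10 ratio to within 0.005, with a median of 0 in each column.

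In R 4.3.3 with limma 3.58.1, normexp with an offset of 50 removed background, and loess, in which control spots had weight 0, centred the log2 ratios of each array. Outlier spots, 51 on array 1 and 18 on array 2, were left out, and repeated spots became a mean per probe. A probe was tested if it was well above background in 1 or both channels on each array, which held for 23519 of 41174. For repeated spots, a share of over 0.5 of them had to be. The mean ratio was tested against 0 on both sides by lmFit and eBayes, adjusted over these probes after Benjamini and Hochberg. The residual degrees of freedom were 1, and eBayes added 5.16. The tested probe of highest mean intensity stood for its gene. The alternatives were the software's ratio, an offset of 16, other filters, kept outliers, the mean of probes and single arrays. Others were median centring in place of loess and the spike-in mean taken off after loess. Both arrays came from 1 slide and 1 scan. With 2 arrays, their number limits the precision.

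Every member was named with each probe. In the other lists the rule named at most 6 genes past the threshold, taken by size. The members and lists were chosen with earlier results of these data known.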

Additional observations from a re-analysis of the deposited data

How the results depend on the processing

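No paired analysis was possible because both arrays belong to a single group whose ratio is set against 0. Il1f5, Il18, Il1a, Il33 and Il1rn kept their direction and stayed past the threshold under each alternative that tested them. For the spike-in mean, which lowers every ratio, the direction of these genes was fixed in advance. Requiring signal well above background in both channels left 5 members lower, with Il1f6 and Il1f9 untested, against 7 with the filter on 1 channel, and lowered the calls among the other ligands of the family from 2 to 1. Without the filter on dim probes Il1b entered at -0.13 (adjusted p = 0.118, limma). An offset of 16 and keeping outlier spots changed no call of a member. The mean over tested probes was -0.99 for Il1f9 and -0.17 for Il1r2. Leaving out an array leaves single values without a test. These ran from -4.33 to -2.99 for Il1f5, -1.95 to -1.85 for Il18, -1.63 to -1.21 for Il1a, -1.58 to -1.03 for Il1rn, -1.36 to -1.34 for Il33, -1.06 to -0.84 for Il1f6, -0.89 to -0.71 for Il1f9, -0.04 to -0.01 for Il1r2 and 0.28 to 0.43 for Il1r1. Members at least 2-fold lower numbered 5 to 6 on single arrays, where the count of 6, on array 2, takes in Il1f6. The slide could not be a block, since both arrays lie on 1 slide.

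Median centring turned Il1r2 to 0.49 (adjusted p = 1.19e-05, limma), and the spike-in mean turned Il1r1 to -0.41 (adjusted p = 0.00096, limma) and put Il1r2 at -0.79, past the threshold (adjusted p = 1.94e-10, limma). These alternatives shift the median of all genes by 0.53 and -0.76, and in both fits eBayes gave every probe the same variance. Median centring gave 2 members higher and the spike-in mean gave 0. Of the 9 tested members, those at least 2-fold lower on both arrays were 5 under loess and 2 with median centring. They were 7 with the spike-in mean, 7 with the software's ratio and 6 with an offset of 16. The counts of 6 and 7 take in Il1f6, Il1f9 or both, whose lower ratios the filter favoured. Over all genes, median centring gave 10270 higher and 988 lower, with 1302 and 228 at least 2-fold on both arrays. The spike-in mean gave 272 and 12503, with 29 and 2122. Loess gave 4533 and 3883, with 206 and 441, and the software's ratio gave 437 and 684 at least 2-fold. On single arrays 225 to 338 genes were at least 2-fold higher and 463 to 581 lower. In the pathway lists, median centring gave 5 higher and 1 lower receptor genes, 6 and 1 maturation genes, 8 and 0 signalling genes, and 12 and 4 induced genes. The spike-in mean gave 0 higher receptor genes, 0 higher and 8 lower maturation genes, 1 and 13 signalling genes, and 2 and 15 induced genes. The software's ratio gave 3 lower receptor genes. The cause of these differences was not tested. The dimness of Il1b, Il1f6 and Il1f9 limits what their ratios can show.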
